A study of Mus musculus with 12 samples.

Results

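A set of 10 genes of the lipid droplet was followed in bone-marrow derived macrophages of the mouse after ex vivo assays with brain tumor material. The 10 genes are Plin2, Plin3, Dgat1, Dgat2, Pnpla2, Lipe, Mgll, Abhd5, Hilpda and G0s2. They were taken by symbol from a count table of 24728 genes, in which each had 1 entry, and all 10 were among the 13414 genes with enough counts to be tested. The study concerns how macrophages in brain tumors take up and reuse myelin, the lipid-rich sheath around axons. Its 12 libraries fall into 4 groups of 3, labelled Full Tumor, Tumor without Myelin, Myelin Alone and Control. All 4 groups are dTomato+ bone-marrow derived macrophages that were sorted from the assays, and their source is given as bone marrow with dissociated brain tumor. The labels do not give the mouse strain, the age, the tumor model of these assays, the length of exposure, or what the Control macrophages received. Each group holds 1 library of each mn number (957, 958 and 016), a term the labels do not explain.

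A lipid droplet is a core of neutral lipid, mostly triglyceride and sterol ester, inside a shell of phospholipid and coat proteins. Cells fill it by adding a fatty acid to diacylglycerol and empty it by a chain of lipases that remove the fatty acids in turn. Macrophages that take up myelin or lipoproteins store part of the lipid in such droplets and are then called foam cells. Among the genes described here, Plin2 and Plin3 encode coat proteins, Dgat1 and Dgat2 the enzymes of the last step of triglyceride synthesis, and Pnpla2 (ATGL), Lipe (HSL) and Mgll the lipases that act in sequence on triglyceride, diacylglycerol and monoacylglycerol. Abhd5 (CGI-58) encodes the activator of ATGL, and Hilpda and G0s2 encode inhibitors of ATGL.

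Libraries held 17071673 to 21689624 counts. The summed level of 9 macrophage markers was 15501 to 17939 CPM, which are counts scaled to a common library total, in Full Tumor, 17092 to 18631 in Tumor without Myelin, 13718 to 16083 in Myelin Alone and 13913 to 15812 in Control, so the labelled cell type carried its defining transcripts in every library. A microglia list, of which 7 of 8 genes had an entry, summed to 665 to 822 CPM in Full Tumor, 694 to 903 in Tumor without Myelin, 576 to 601 in Myelin Alone and 370 to 511 in Control. Neutrophil markers summed to 14.8 to 90.5, 10.3 to 114, 23.2 to 130 and 38.9 to 263 CPM in the same order of groups. Of the myelin and oligodendrocyte list, 5 of 8 genes had an entry, and they summed to 127 to 161 CPM in Full Tumor, 129 to 158 in Tumor without Myelin, 121 to 129 in Myelin Alone and 111 to 136 in Control. Mbp (44.4 to 76.9 CPM) and Cnp (52.4 to 90.4 CPM) were present in every library, Control included. Mobp averaged 0.790 CPM in Full Tumor and 0.470 CPM in Myelin Alone, and had 0 counts in all 6 libraries of Tumor without Myelin and Control. Adipocytes also use these droplet genes, and their markers (2 of 6 with an entry) summed to at most 0.499 CPM, with both at 0 in the Control libraries. The 8 tumor and neural markers summed to 9.92 to 13.1 CPM in Full Tumor, 5.80 to 13.1 in Tumor without Myelin, 8.53 to 25.3 in Myelin Alone and 7.56 to 17.7 in Control. Most of this was Cspg4 (3.35 to 19.5 CPM) and Nes (0.579 to 7.79 CPM), while Olig2 and Sox2 were at 0 in 11 of 12 libraries each. The labels do not tie the libraries to separate animals or cultures. The p-values therefore speak only of differences among these 12 libraries, and their spread may be a technical one.

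Of the 10 genes, Plin2 and Hilpda, a coat gene and an ATGL inhibitor gene, were the only ones higher in Full Tumor than in Tumor without Myelin and higher in Myelin Alone than in Control within each of the 3 mn numbers. That pattern was met by 411 of the 13414 tested genes, or 3.06%. The bases before their RefSeq transcription starts (build GRCm38.p6) are shown because these 2 genes carry the pattern. The Plin2 window lies at chr4:86670060-86670309 on the minus strand and the Hilpda window, before the second of 2 listed starts, at chr6:29272376-29272625 on the plus strand. Capitals mark the nuclear receptor motif AGGTCA, read here on the opposite strand as TGACCT, and the hypoxia response core ACGTG.
Plin2: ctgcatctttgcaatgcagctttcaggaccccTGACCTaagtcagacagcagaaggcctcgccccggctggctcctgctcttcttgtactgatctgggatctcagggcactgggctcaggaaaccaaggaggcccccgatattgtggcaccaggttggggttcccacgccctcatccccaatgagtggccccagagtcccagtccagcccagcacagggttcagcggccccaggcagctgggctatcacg
Hilpda: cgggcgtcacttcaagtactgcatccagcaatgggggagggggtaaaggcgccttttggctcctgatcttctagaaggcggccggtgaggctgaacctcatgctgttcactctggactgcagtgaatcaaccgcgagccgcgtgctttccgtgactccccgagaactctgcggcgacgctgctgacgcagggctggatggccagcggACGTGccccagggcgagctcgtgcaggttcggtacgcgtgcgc
The AGGTCA match in the Plin2 window began 218 bases before the start, and the core in the Hilpda window 43 bases before it. The window of the first Hilpda start held neither motif. Genes without the pattern had matches too, with AGGTCA before Abhd5 and ACGTG before both Mgll starts and before 1 of 2 Lipe starts. On either strand, AGGTCA was found in 14.0% and ACGTG in 16.6% of 32851 windows of 250 bases of the same genome. The direct repeat of AGGTCA with 1 free base between its copies, the form bound by PPAR receptors, contains AGGTCA itself and was found in 11 of all windows (0.0335%) and in none of the windows of the 8 genes with a RefSeq entry. These matches describe letters in a window and were not tested for binding.

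Per kilobase of exon the 10 genes spanned more than 3 orders of magnitude. Plin2 led at a mean level of 749 CPM per kb over the 12 libraries, and by CPM it was the 28th most abundant of the tested genes. Plin3 followed at 87.0, Pnpla2 at 40.1, Hilpda at 37.5, Abhd5 at 15.6 and Dgat1 at 9.63 CPM per kb. The last 4 were Lipe at 1.88, G0s2 at 1.29, Mgll at 0.751 and Dgat2 at 0.482 CPM per kb. Each gene stood above its next neighbour in this order in 12 of 12 libraries with 4 exceptions. Pnpla2 was above Hilpda in 6 libraries, Lipe above G0s2 in 9, G0s2 above Mgll in 10 and Mgll above Dgat2 in 9, so those neighbours were not separated beyond their spread. Thus the coat gene Plin2, the synthesis gene Dgat1 and the lipase gene Pnpla2 each stood far above Plin3, Dgat2 and the other lipase genes of their own role.

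**Figure D1:**
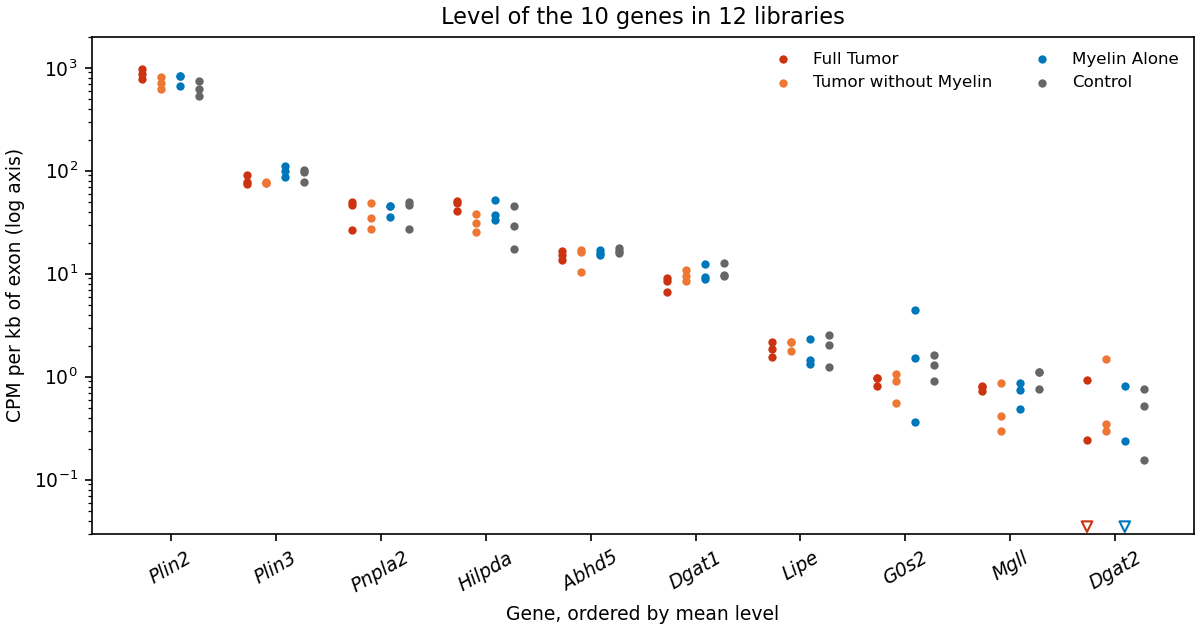
Level of each gene in each of the 12 libraries, in CPM per kilobase of exon on a log axis, with genes ordered by mean level and groups by colour. Open triangles mark the 2 libraries with 0 Dgat2 counts. The order of genes, Plin2 at the top at a mean of 749 and Dgat2 at the bottom at 0.482, spans far more than the 4 groups do within any gene.

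The comparisons ask how the macrophages differ after tumor material with its myelin, tumor material without it, and myelin by itself. With group as the only term, 0 of the 10 genes passed an adjusted p of 0.05 in any of 8 comparisons (edgeR's quasi-likelihood test, Benjamini-Hochberg adjustment over 13414 genes). The share of all tested genes called was 0.0745% for the pooled tumor effect and 0% for each of the other 7 comparisons. DESeq2 and limma-voom also called 0 of the 10 genes in each comparison. At an unadjusted p under 0.05 this fit had 1 gene for Full Tumor against Control (Plin2) and 2 for the pooled myelin effect (Plin2 and Hilpda). It had 1 for the pooled tumor effect (Plin3) and 0 for the others. Over all 13414 tested genes the unadjusted counts were 560, 321 and 775 for these named comparisons, and 153 to 548 for the others. The lowest adjusted p of the 10 genes was 0.623, for Plin3. The mn numbers paired the libraries, and adding them to the fit as a block changed the call of 1 gene, Plin2 in Full Tumor against Control. With the block, 0.813% of tested genes were called for Full Tumor against Control, 0.745% for Tumor without Myelin against Control, 0.0373% for Myelin Alone against Control, 0% for Full Tumor against Tumor without Myelin and 0.112% for Full Tumor against Myelin Alone. In the same fit 0.112% were called for the pooled myelin effect, 2.25% for the pooled tumor effect and 0% for their interaction. Apart from Plin2 in the first of these, 0 of the 10 genes were called in any. Unadjusted counts of the 10 genes with the block follow, with the count over all 13414 tested genes in brackets. They were 2 (1319) for Full Tumor, 2 (1272) for Tumor without Myelin and 1 (810) for Myelin Alone, each against Control. Full Tumor had 1 (520) against Tumor without Myelin and 2 (995) against Myelin Alone. The pooled myelin effect had 2 (957), the pooled tumor effect 2 (1702) and the interaction 0 (393). The 3 comparisons with Control share its libraries and are therefore not independent of each other.

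**Figure D2:**
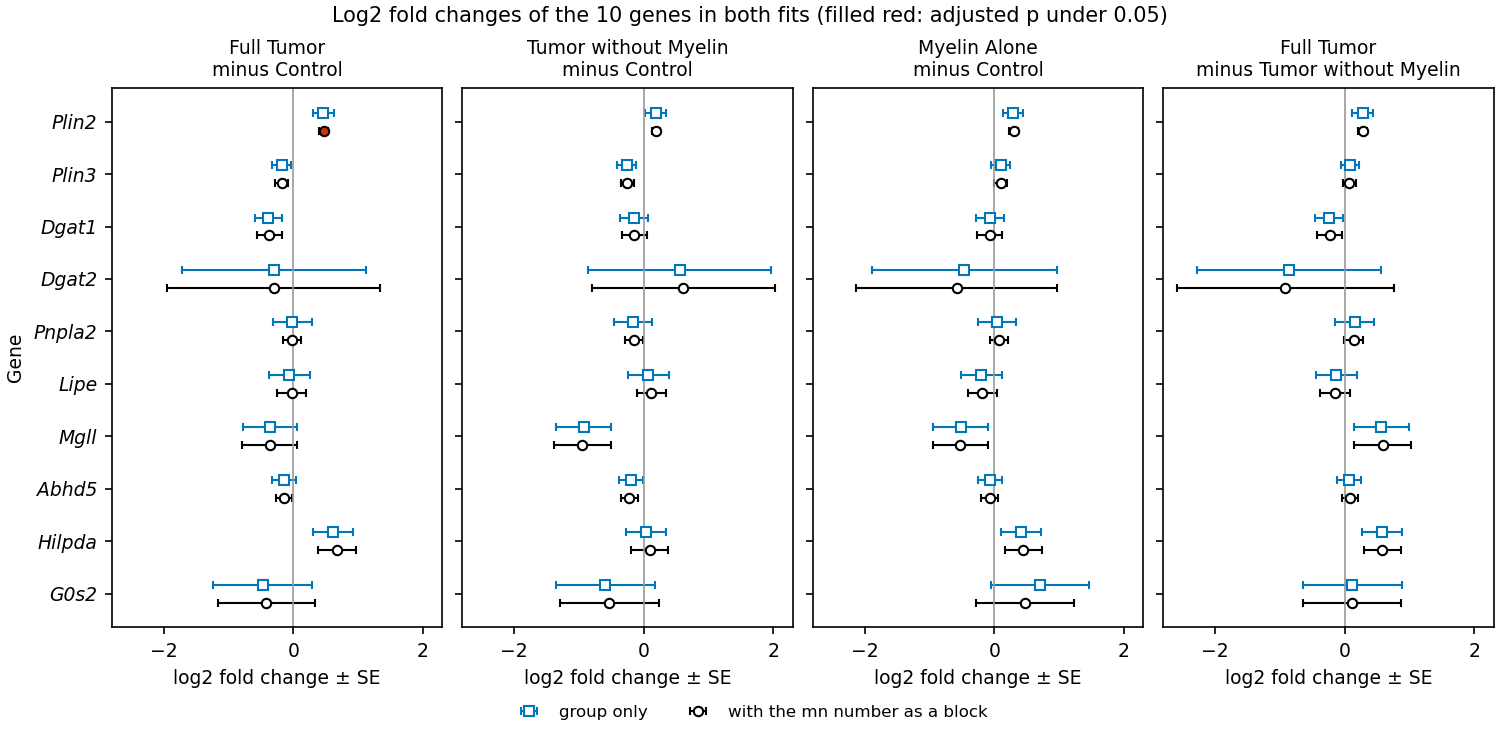
Log2 fold change with its standard error for the 10 genes in 4 comparisons, from the fit with group only (squares) and the fit with the mn number as a block (circles); red filling marks an adjusted p under 0.05. The only filled symbol is Plin2 in Full Tumor minus Control with the block, at 0.47 ± 0.07, and Dgat2 has the widest error bars.

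Plin2 encodes perilipin 2, the coat protein found on the droplets of most cells outside fat tissue, and lies at chr4:86648386-86670060 (mm10). In mn numbers 957, 958 and 016 its level was 3028, 2721 and 3435 CPM in Full Tumor, 2507, 2198 and 2870 CPM in Tumor without Myelin, 2932, 2313 and 2914 CPM in Myelin Alone, and 2174, 1874 and 2615 CPM in Control. Full Tumor and Control did not overlap, with the lowest Full Tumor library above the highest Control library, as was the case in this direction for 4.59% of tested genes. Means were 3061 ± 358, 2525 ± 336, 2720 ± 352 and 2221 ± 373 CPM in the same order of groups (SD, n = 3 each). Counts behind these values were 34162 to 72727 per library.

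Plin2 rose in Full Tumor relative to Control when the mn number was a block, by a log2 fold change of 0.47 ± 0.07 (SE; fold 1.38; edgeR adjusted p = 0.00976), and was higher in 3 of 3 numbers. With group only the change was 0.46 ± 0.16 and did not pass (edgeR adjusted p = 0.964). Within the numbers the log2 difference between Full Tumor and Control was 0.48 for 957, 0.54 for 958 and 0.39 for 016. The call with the block was lost without Control 957 (edgeR adjusted p = 0.0729), Control 958 (0.0747) or Full Tumor 958 (0.0693), and the change ranged from 0.43 to 0.51 when each library was left out in turn. It was also lost without all 4 libraries of number 957 (adjusted p = 0.189) or 958 (0.402).

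The other Plin2 differences were smaller and did not pass in either fit. With group only, Plin2 differed from Control by 0.18 ± 0.16 in Tumor without Myelin and by 0.29 ± 0.16 in Myelin Alone, and Full Tumor differed from Tumor without Myelin by 0.28 ± 0.16. Averaged over the presence and absence of tumor, the pooled myelin effect was 0.28 ± 0.11, and the block gave 0.29 ± 0.05 (edgeR adjusted p = 0.0535). Libraries with myelin had Plin2 levels of 2313 to 3435 CPM (median 2923), against 1874 to 2870 CPM (median 2352) in those without. The pooled tumor effect was 0.18 ± 0.11, and the block gave 0.18 ± 0.05 (edgeR adjusted p = 0.0893). The interaction, which is the myelin difference with tumor minus that without, was -0.01 ± 0.22 with group only.

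Within each mn number Plin2 stood in a fixed order, with Full Tumor highest, then Myelin Alone, then Tumor without Myelin, and Control lowest. This order was written down after the Plin2 values had been seen. It held in all 3 numbers for 7 of 13414 tested genes (0.0522%), and 95 genes (0.708%) kept any strict order of the 4 groups in all 3 numbers. Fabp3, Fkbp11, Kif13b, Serpinb6a, Slc35b1 and Zfp821 were the other genes in the Plin2 order; they too were named after their values were seen. Both groups with myelin were above both groups without it in all 3 numbers for Plin2 and for 112 tested genes in all (0.835%). Group accounted for 51.9% of the variance of Plin2 on the log2 scale and the mn number for 44.3%, against medians of 16.9% and 42.8% over the tested genes.

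The microglia list was, like Plin2, lowest in Control within every mn number, but its highest mean was in Tumor without Myelin (785 CPM, against 760 CPM in Full Tumor), where Plin2 was lower than in Full Tumor and Myelin Alone. With the block its member Fcrls rose in Full Tumor relative to Control (2.49 log2; edgeR adjusted p = 0.00739). The defining microglia genes Tmem119 and P2ry12 averaged 6.65 and 1.29 CPM in Full Tumor, 12.1 and 2.20 in Tumor without Myelin, 3.22 and 0.605 in Myelin Alone, and 1.41 and 0.541 in Control. Of the 9 macrophage markers, 6 had a positive and 3 a negative log2 fold change for Full Tumor against Control, and with the block 1 was called, Fcgr1, which rose. Neutrophil markers were highest in Control 016, at 263 CPM, where Plin2 was the highest of the 3 Control libraries, and lowest of the number 016 libraries in Full Tumor, at 14.8 CPM. The part of these markers in the Plin2 difference was not tested. In such bulk samples a larger share of cells of a type and more RNA per cell cannot be told apart.

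**Figure D3:**
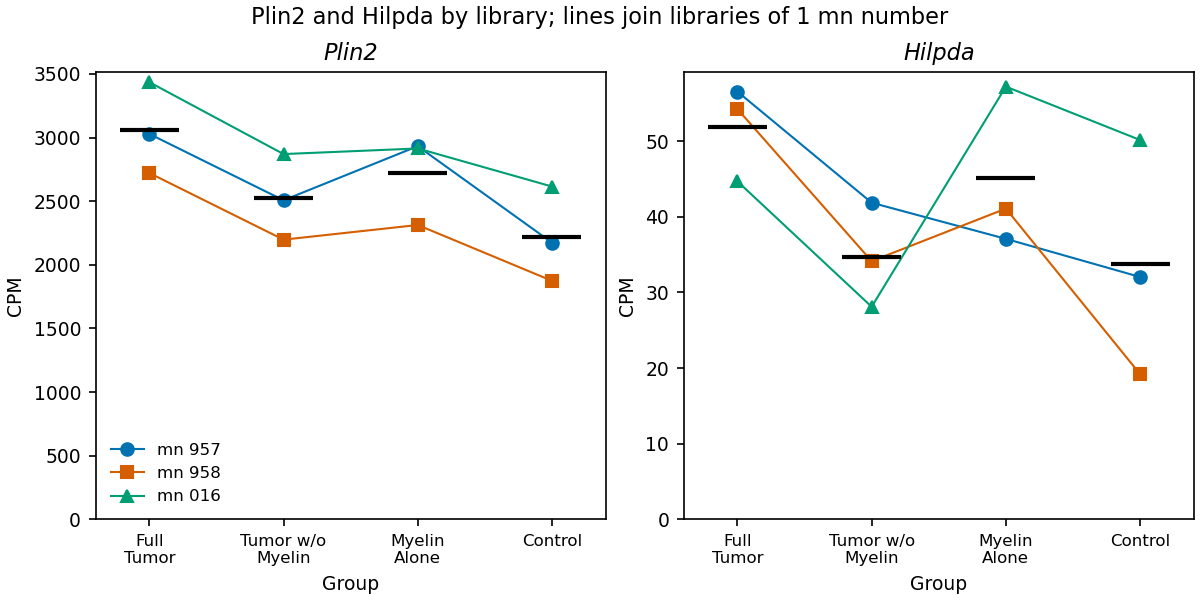
Plin2 and Hilpda levels in CPM by group; each point is a library, lines join the libraries of an mn number and bars are group means. The 3 Plin2 lines share a shape, highest in Full Tumor (2721 to 3435 CPM) and lowest in Control (1874 to 2615 CPM), while the Hilpda line of number 016 is higher in Myelin Alone (57.2 CPM) and Control (50.1 CPM) than in Full Tumor (44.7 CPM).

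Hilpda encodes a small droplet protein that is induced by hypoxia and by fatty acids and that inhibits ATGL; the gene lies at chr6:29272488-29275446. Its level in numbers 957, 958 and 016 was 56.5, 54.2 and 44.7 CPM in Full Tumor, 41.9, 34.1 and 28.1 CPM in Tumor without Myelin, 37.1, 41.1 and 57.2 CPM in Myelin Alone, and 32.0, 19.2 and 50.1 CPM in Control. Every Full Tumor library was above every Tumor without Myelin library, as for 2.58% of tested genes in this direction. Full Tumor and Control overlapped through number 016, in which Control was higher. The log2 difference between Full Tumor and Control was 0.81 for 957, 1.47 for 958 and -0.16 for 016.

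No Hilpda difference passed the test. With group only it was 0.62 ± 0.31 for Full Tumor against Control, 0.04 ± 0.31 for Tumor without Myelin against Control, 0.42 ± 0.31 for Myelin Alone against Control and 0.58 ± 0.31 for Full Tumor against Tumor without Myelin. The pooled myelin effect was 0.50 ± 0.22 and passed only before adjustment (edgeR unadjusted p = 0.0433). Libraries with myelin had 37.1 to 57.2 CPM (median 49.5) and those without 19.2 to 50.1 CPM (median 33.1). The SD of Hilpda was 6.29 CPM in Full Tumor, 6.89 in Tumor without Myelin, 10.7 in Myelin Alone and 15.5 in Control (n = 3 each), so the Control libraries were the most scattered.

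Plin3 encodes perilipin 3 (TIP47), a coat protein that is also found free in the cytosol and that covers nascent droplets, and lies at chr17:56277476-56292873. In numbers 957, 958 and 016 it was measured at 344, 285 and 292 CPM in Full Tumor, 287, 297 and 285 CPM in Tumor without Myelin, 419, 326 and 373 CPM in Myelin Alone, and 365, 294 and 384 CPM in Control. Libraries with tumor had 285 to 344 CPM (median 290), against 294 to 419 CPM (median 369) in libraries without it, and the 2 ranges overlap. The pooled tumor effect was -0.27 ± 0.10 with group only (edgeR adjusted p = 0.623) and did not pass with the block either (adjusted p = 0.107). Plin3 thus had a negative point estimate for tumor material where Plin2 had a positive one, neither of them past the threshold.

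The ratio of the 2 coat genes within a library, both per kilobase, puts these values side by side as a description without a test. In numbers 957, 958 and 016, Plin2 exceeded Plin3 by a ratio of 9.50, 10.3 and 12.7 in Full Tumor, 9.42, 7.97 and 10.8 in Tumor without Myelin, 7.54, 7.65 and 8.42 in Myelin Alone, and 6.41, 6.87 and 7.34 in Control. Within every number the ratio was highest in Full Tumor and lowest in Control. The order of the 4 groups in this ratio differs from that of Plin2 itself, with Tumor without Myelin above Myelin Alone in all 3 numbers.

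**Figure D4:**
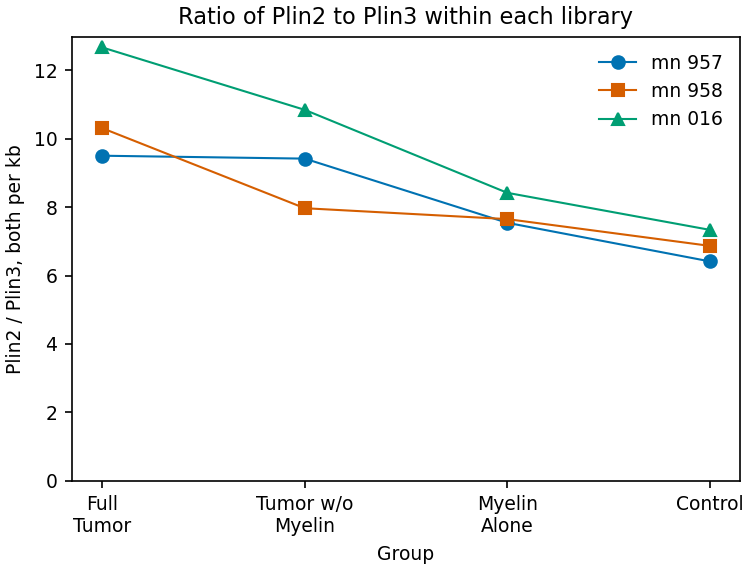
Ratio of Plin2 to Plin3 within each library, both in CPM per kilobase of exon, by group, with lines joining the libraries of an mn number. The ratio is 9.50 to 12.7 in Full Tumor and 6.41 to 7.34 in Control, and within every mn number the other groups lie between. Across numbers, Tumor without Myelin (7.97 to 10.8) overlaps Full Tumor.

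Neither synthesis gene passed the test. Dgat1, the acyltransferase of the endoplasmic reticulum that esterifies mainly fatty acids from outside the cell (chr15:76502015-76511953), was measured at 28.0, 20.4 and 26.2 CPM in Full Tumor, 33.0, 28.8 and 26.1 CPM in Tumor without Myelin, 28.3, 37.8 and 27.0 CPM in Myelin Alone, and 28.9, 38.9 and 29.6 CPM in Control. All Full Tumor libraries were below all Control libraries, as for 3.51% of tested genes in this direction. The log2 fold change of -0.38 ± 0.21 did not pass (edgeR unadjusted p = 0.0964), and most of it lay in number 958, where the difference was -0.91 against -0.04 in 957 and -0.18 in 016.

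Dgat2, the acyltransferase linked to newly made fatty acids (chr7:99153658-99182719), varied widely between libraries. It gave 0 to 80 counts a library, with 0 in Full Tumor 958 and Myelin Alone 958, where a count of 0 allows up to 0.171 and 0.165 CPM. The highest values were 4.57 CPM in Tumor without Myelin 958 and 2.85 CPM in Full Tumor 957, and each group held a library below 0.92 CPM. Its log2 fold change of -0.30 ± 1.42 for Full Tumor against Control spans both directions, and the libraries differed widely even within number 958, with 0 counts in Full Tumor, 80 in Tumor without Myelin, 0 in Myelin Alone and 43 in Control.

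Pnpla2, the triglyceride lipase that starts the breakdown (chr7:141455198-141460743), was measured at 149, 140 and 79.6 CPM in Full Tumor, 104, 146 and 81.2 CPM in Tumor without Myelin, 137, 138 and 107 CPM in Myelin Alone, and 149, 140 and 82.5 CPM in Control. The mn number accounted for 79.5% of its variance and the group for 5.97%. In each group number 016 was the lowest of the 3 libraries. Full Tumor differed from Control by -0.01 ± 0.29 with group only. The lipase Lipe, which acts mainly on diacylglycerol (chr7:25379527-25398710), followed the numbers as well (62.2% of its variance), with 7.30 to 14.9 CPM over all libraries and a Full Tumor against Control difference of -0.06 ± 0.31.

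Mgll, the monoacylglycerol lipase (chr6:88724412-88828360), had 25 to 115 counts a library. Its level was 3.70, 4.16 and 4.01 CPM in Full Tumor, 2.11, 4.40 and 1.52 CPM in Tumor without Myelin, 4.37, 2.48 and 3.77 CPM in Myelin Alone, and 5.70, 3.90 and 5.64 CPM in Control. Tumor without Myelin against Control was the largest Mgll difference, at -0.92 ± 0.42 on the log2 scale, and did not pass (edgeR unadjusted p = 0.0507). Number 958 went the other way from 957 and 016, with 4.40 CPM in Tumor without Myelin and 3.90 CPM in Control.

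The ATGL activator Abhd5 (chr9:122351608-122381524) was measured at 90.2, 81.4 and 99.3 CPM in Full Tumor, 96.4, 61.4 and 101 CPM in Tumor without Myelin, 93.9, 89.8 and 100.4 CPM in Myelin Alone, and 98.3, 93.8 and 106 CPM in Control. Control was the highest group in all 3 numbers, a pattern of 2.17% of tested genes. The differences were small, with -0.14 ± 0.18 for Full Tumor against Control and -0.20 ± 0.18 for Tumor without Myelin against Control, and none passed. The second ATGL inhibitor, G0s2 (chr1:193272161-193273217), gave 6 to 70 counts a library. Its highest level was 3.86 CPM in Myelin Alone 958, and it was 0.708 to 0.855 CPM in Full Tumor, 0.486 to 0.924 CPM in Tumor without Myelin and 0.798 to 1.43 CPM in Control. Of the 2 ATGL inhibitor genes, Hilpda therefore supplied nearly all the reads, at 37.5 against 1.29 CPM per kb.

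**Figure D5:**
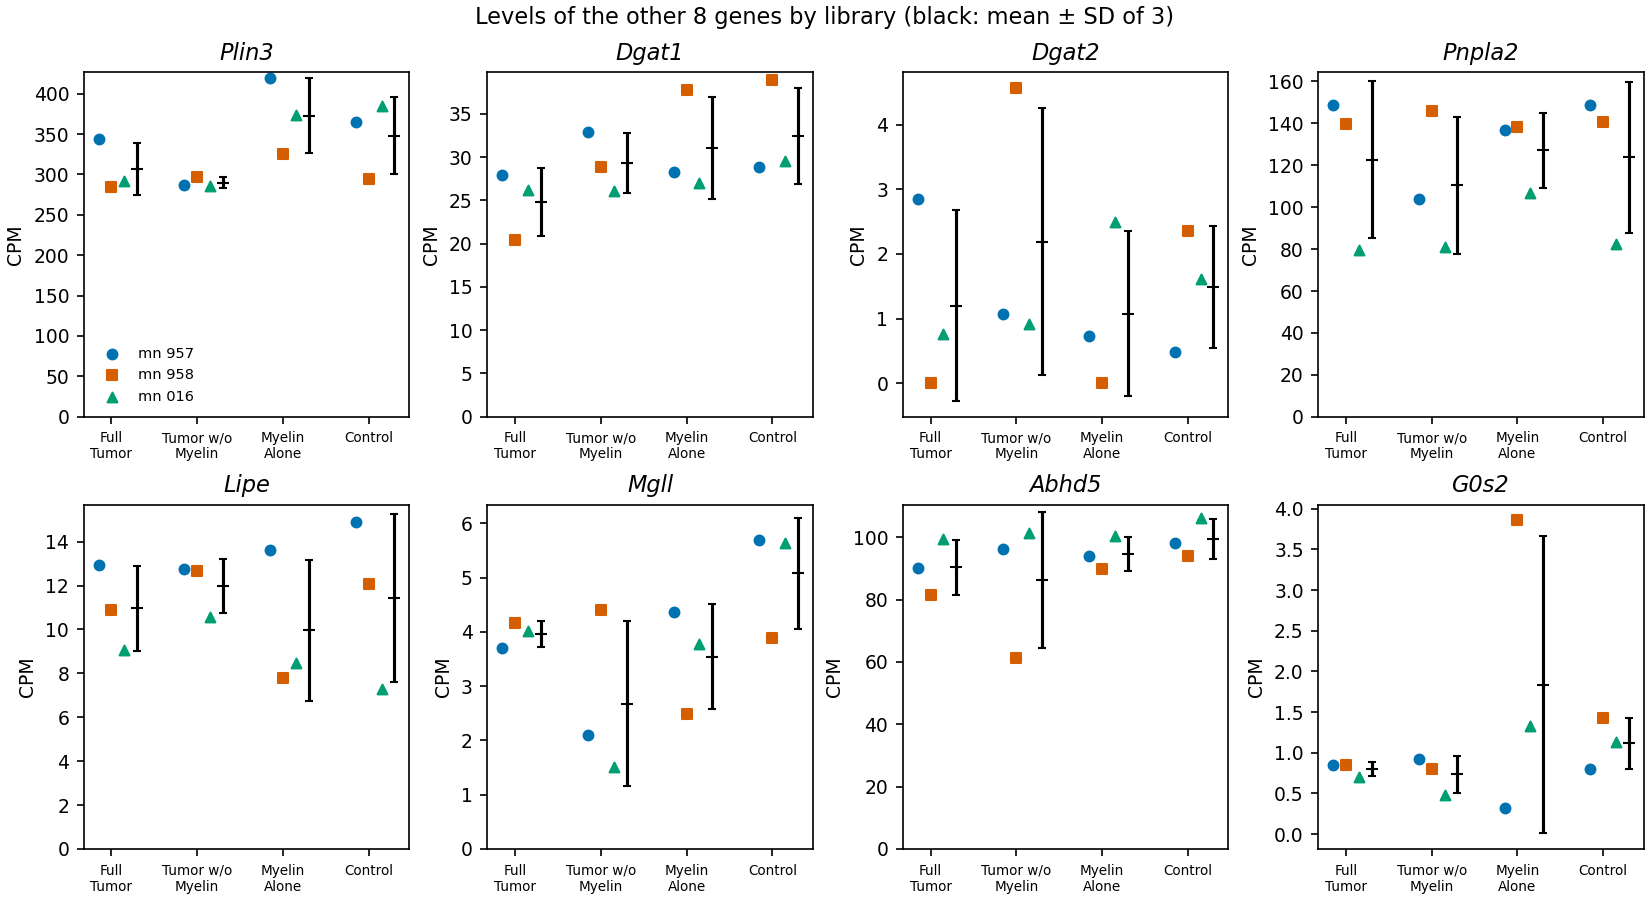
Levels of the other 8 genes in CPM, a panel for each gene with axes of its own; symbols mark the mn number and black bars the mean ± SD of the 3 libraries of a group. Pnpla2 in number 016 is the lowest of the 3 libraries in every group, though the numbers overlap across groups, and Dgat2 and G0s2 scatter most between libraries.

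For the 10 genes taken as a list, medians and counts within the mn numbers were set beside those of all tested genes. For Full Tumor against Control 2 had a positive log2 fold change (Plin2 and Hilpda) and 8 a negative one (group only). Of the negative values, only those of Plin3 (-0.18 ± 0.14) and Dgat1 (-0.38 ± 0.21) were larger than their standard errors. The share of all tested genes with each sign was not counted. The median of the 10 genes was -0.16, against 0.00 over all tested genes. The medians were -0.16 against 0.01 for Tumor without Myelin minus Control, -0.01 against 0.01 for Myelin Alone minus Control and 0.10 against 0.00 for Full Tumor minus Tumor without Myelin. Within all 3 numbers, 1 of the 10 genes was higher and 4 were lower in Full Tumor than in Control, where 16.2% and 15.1% of tested genes were. The 4 were Plin3, Dgat1, Abhd5 and Pnpla2. Pnpla2 was nearly unchanged, with log2 differences of -0.000126 in 957, -0.00665 in 958 and -0.0518 in 016. In Myelin Alone against Control 2 were higher and 3 lower in all 3 numbers, where 13.6% and 12.2% of tested genes were.

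Other genes of the pathway were taken from lists of 59 genes with roles around the droplet, of which 47 were tested. With the block 2 of them were called in any comparison, Lpin2 and Ndrg1. With group only edgeR called 0 of the 47 in each comparison (0 to 4 at an unadjusted p under 0.05). At that unadjusted threshold the same fit had 153 to 775 of all 13414 tested genes. Limma-voom called 0 of the 47, and DESeq2 called Ndrg1 for the pooled tumor effect. Lpin2, a phosphatidate phosphatase that makes the diacylglycerol used by Dgat1 and Dgat2, rose with tumor material. In numbers 957, 958 and 016 its level was 105, 140 and 70.7 CPM in Full Tumor, 114, 147 and 66.6 CPM in Tumor without Myelin, 71.8, 75.5 and 50.9 CPM in Myelin Alone, and 67.2, 94.0 and 39.2 CPM in Control. Both tumor groups were above both groups without tumor in every number, a pattern whose share over all tested genes was not counted. A looser pattern was met by 4.17% of tested genes. It asks for Full Tumor above Myelin Alone and Tumor without Myelin above Control in every number. With the block it rose by 0.69 ± 0.13 in Full Tumor and by 0.72 ± 0.13 in Tumor without Myelin relative to Control (edgeR adjusted p = 0.0341 and 0.0283), and the pooled tumor effect was 0.68 ± 0.09 (adjusted p = 0.00288). The pooled effect passed without each library in turn and was lost without all libraries of number 957 (adjusted p = 0.0913) or 958 (0.0633). The call for Full Tumor against Control was lost in 10 of these 12 runs (highest adjusted p = 0.195, without Full Tumor 958) and held only without Myelin Alone 958 or 016. That for Tumor without Myelin against Control was lost without any of the 6 libraries compared (highest adjusted p = 0.177, without Tumor without Myelin 958). With group only none of the 3 was called. The other 8 tested genes of glycerolipid synthesis, from Gpam to the Agpat and Lpin families, did not pass in either direction.

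The second was Ndrg1, a gene induced by low oxygen, which fell in Tumor without Myelin relative to Control with the block by 0.81 on the log2 scale (SE 0.14; edgeR adjusted p = 0.0243). Its level was 34.5 ± 6.43 CPM in Full Tumor, 25.7 ± 4.65 in Tumor without Myelin, 49.6 ± 10.5 in Myelin Alone and 44.9 ± 5.47 in Control (SD, n = 3 each). The pooled tumor effect on Ndrg1 was -0.66 ± 0.10 (adjusted p = 0.00512), and it passed without each library in turn but not without all libraries of number 957 (0.0913) or 958 (0.101). The call against Control was lost without Control 957 or 958 or any of the 3 Tumor without Myelin libraries (highest adjusted p = 0.138, without Tumor without Myelin 958). The list of 10 hypoxia genes had a positive log2 fold change for 10 of 10 genes in Full Tumor against Tumor without Myelin. Their median was 0.20 with group only against 0.00 over all tested genes, and none of them passed in that comparison. The share of all tested genes with a positive value was not counted, and the 10 genes were measured in the same libraries. In both fits the hypoxia list had 7 positive and 3 negative values in Full Tumor against Control.

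No gene of the remaining lists was called in either edgeR fit. Of the other coat genes, Plin4 was tested and reached at most 1.14 CPM, and Plin1, Plin5 and Cidec are not analysed here. Droplet formation was represented by 7 tested genes, led by Aup1 at 227, 230, 226 and 235 CPM, Rab18 at 154, 129, 130 and 138 CPM, and Bscl2, which encodes seipin, at 132, 126, 112 and 115 CPM in Full Tumor, Tumor without Myelin, Myelin Alone and Control. Among 10 tested genes of fatty acid uptake and activation, the lipoprotein lipase gene Lpl averaged 3921, 4353, 4248 and 4573 CPM in the same order, the scavenger receptor gene Cd36 2625, 2315, 2385 and 2348 CPM, and the transporter gene Slc27a1 370, 372, 391 and 326 CPM. Lipa, which encodes the acid lipase of the lysosome, averaged 3434, 3587, 3422 and 3371 CPM in that order. The sterol ester genes Soat1, which esterifies cholesterol, and Nceh1, which hydrolyses the ester, averaged 1141, 1058, 1195 and 1112 CPM and 746, 708, 698 and 694 CPM. Cpt1a, which admits fatty acids to mitochondrial oxidation and led the 4 tested PPAR targets, averaged 155, 122, 163 and 126 CPM, with 0.30 ± 0.15 for Full Tumor against Control (group only, not called).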

How the data were processed

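Messenger RNA was measured in 12 libraries. Per the labels' protocols, total RNA of sorted cells was column-purified and copied into cDNA by oligo-dT priming with a template switch. The authors deposited raw counts per gene, with no normalization, and mm10 is the build in the submitters' processing notes. For the aligner, the counter and strand handling, nothing is given in the sources used here. Sense and antisense reads therefore cannot be told apart. Some items are not reported here. The antisense gene 4732471J01Rik shares 918 exon bases with Lipe and had a mean of 7.42 counts a library, where Lipe had 141 to 280. The table has 24728 genes, with 12 repeated symbols and 0 rows that name no gene.

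CPM (library totals multiplied by TMM factors of 0.965 to 1.06) and all tests were computed from the deposited counts. Differences were tested chiefly with quasi-likelihood fits of edgeR 4.0.16 (R 4.3.3) to all 12 libraries, with group only, after filterByExpr, which kept 13414 genes holding 99.9% of counts. P-values are two-sided and Benjamini-Hochberg adjusted over these genes. SE is derived from F, as the size of the log2 fold change divided by its root. A pooled effect is the mean of the 2 differences it spans. Exon lengths came from GENCODE M21 and promoters from RefSeq (GRCm38.p6; 8 of 10 genes matched, and Dgat1 and Dgat2 are not shown). A count of 0 allows up to 3 counts (0.142 to 0.182 CPM), which covers counting error only. No replicates were duplicates (chi-square per degree of freedom 23.9 to 142 within groups).

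Whether the mn numbers pair the libraries was checked on deviations from group means. Pairs of libraries with different numbers had a median correlation over genes of -0.281. Deviations sum to 0 within a group, which by itself lowers that value, so it is not separate support for a pairing. All 18 same-numbered pairs correlated above 0.1 (range 0.138 to 0.727 over genes, with a median of 0.438). Of the 12 libraries, 11 were closest to one of their own number. The numbers were therefore used as a block in a second fit. The biological coefficient of variation was 0.414 with group only (8 degrees of freedom left) and 0.266 after adding the block (6).

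All 10 genes are described. Of the other lists, genes called in either fit are named, and otherwise up to 3 of highest mean CPM. For likeness to Plin2 the 5 genes with the highest r are named. The genes and lists were chosen with earlier results of these data known. Alternatives were other size factors, library totals alone, no low-count filter, DESeq2 1.42.0, limma-voom (limma 3.58.1), and each library or mn number left out. The procedure was also run on simulated counts, in which every set change was larger than the Plin2 fold of 1.38. That run therefore does not bear on a change of the Plin2 size.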

Additional observations from a re-analysis of the deposited data

How the results depend on the processing

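The count of called genes among the 10 was 0 with group only in all 8 comparisons under every alternative run on that fit (relative log expression size factors, library totals alone, no low-count filter, DESeq2, limma-voom, and leaving out each library or mn number, range 0 to 0), and it was 1 for Full Tumor against Control with the replicate block, which is Plin2. The block changed no other call of the 10 genes. In the block fit, 2 alternatives were added after the data had been seen. With library totals alone the pooled myelin effect on Plin2 passed (0.27, edgeR adjusted p = 0.0399), as did the pooled tumor effect on Plin3 (-0.30, adjusted p = 0.0482), and without a low-count filter the pooled myelin effect on Plin2 passed (0.28, adjusted p = 0.0174). The pooled myelin effect on Plin2 also passed without Control 016 (adjusted p = 0.0287) or without number 016 (0.0494), and its pooled tumor effect without Myelin Alone 957 (0.0353) or Control 016 (0.0447). The call of Plin2 in Full Tumor against Control held with library totals alone (0.41, adjusted p = 0.0109) and without the filter (0.46, adjusted p = 0.00146). For Lpin2, library totals alone ended the call for Full Tumor against Control (0.63, adjusted p = 0.0613). Over the whole table DESeq2 called 43 genes for Full Tumor against Control, 54 for Tumor without Myelin against Control, 11 for Myelin Alone against Control, 5 for Full Tumor against Tumor without Myelin, 19 for Full Tumor against Myelin Alone, 17 for the pooled myelin effect and 174 for the pooled tumor effect, where edgeR with group only called 10 for the last and 0 for the others and edgeR with the block called 109, 100, 5, 0, 15, 15 and 302. Without a low-count filter edgeR called 3, 1, 0, 0, 0, 2 and 48 in that order, and for the pooled tumor effect limma-voom called 6, size factors by relative log expression gave 7 and library totals alone 2. The cause of these shifts was not tested. No value past the threshold in either fit changed sign. Dgat2 (0 to 80 counts a library) and G0s2 (6 to 70) had the widest standard errors of the 10 genes.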

Other observations

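The genes whose pattern was most like that of Plin2 are given as a description, with no test. Over the 12 libraries, on log2 CPM with the mean of each mn number removed, the 5 highest Pearson correlations with Plin2 among 8246 genes of at least 10 CPM were those of Serpinb6a (r = 0.974), Stra6l (0.954), Glb1 (0.937), Rab34 (0.933) and Fabp3 (0.933). The points share libraries, and the mn number was removed from both genes. Serpinb6a, a serine protease inhibitor gene, averaged 578 ± 87.6 CPM in Full Tumor, 507 ± 73.4 in Tumor without Myelin, 546 ± 79.4 in Myelin Alone and 454 ± 56.6 in Control (SD, n = 3 each). Fabp3, which encodes a fatty acid binding protein, averaged 15.2 ± 1.33, 10.7 ± 1.64, 11.8 ± 1.02 and 8.49 ± 1.13 CPM in the same order. Glb1, the gene of lysosomal beta-galactosidase, averaged 235 ± 30.7, 205 ± 43.5, 201 ± 47.1 and 148 ± 33.9 CPM. Stra6l averaged 45.8 ± 3.60, 32.4 ± 2.46, 37.9 ± 3.50 and 20.4 ± 4.80 CPM, and Rab34, a small GTPase gene, 43.1 ± 7.84, 32.3 ± 5.90, 34.8 ± 3.38 and 28.8 ± 2.66 CPM. The other droplet genes were less like Plin2, with r = 0.634 for Hilpda (place 448 among the genes compared), -0.119 for Plin3, -0.282 for Abhd5 and -0.612 for Dgat1.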
